A study of Homo sapiens with 26 samples.

Results

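Haem is built from glycine and succinyl-CoA by a chain of enzymes that begins and ends in the mitochondrion and passes through the cytosol. The genes described here encode 8 of these enzymes, namely ALAS1, ALAS2, ALAD, UROS, UROD, CPOX, PPOX and FECH. They were chosen by gene name, and each had 1 row among the 19478 coding sequences of every count table. Their ribosome footprints were counted in all 26 libraries of the series, which compared methods of removing ribosomal RNA from ribosome profiling libraries of 3 human cell lines. By its title the series asks whether depletion by nuclease biases the footprint counts. Here the 8 genes were compared between the cell lines, between the ALAS pair, and between depletion methods.

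All libraries were made from cells lysed with cycloheximide, whose monosomes were collected after RNase I digestion. HEK293T and HEK293FT are lines of human embryonic kidney origin, and K562 is a chronic myeloid leukaemia line that can make embryonic and foetal globins. No drug or genetic change was labelled for any group. The HEK293T table held undepleted, Ribo-Zero Gold, RiboCop and NEBNext libraries, 2 of each, from fragments of 15 to 35 nt. The HEK293FT table held 1 undepleted library and 1 library depleted with custom oligos, both of 15 to 35 nt. The K562 kit table, from fragments of 20 to 34 nt, held undepleted, FastSelect, riboPools and cold-eluted riboPools libraries, 2 of each, and 4 Ribo-Zero Plus libraries, of which 1 had no addition, 1 had oligos, 1 had formaldehyde and 1 had both. The K562 size table held 1 undepleted and 1 NEBNext library for 20 to 34 nt and 1 of each for 20 to 60 nt. Both libraries titled undepleted in the size table carry another label that names NEBNext, so each direction drawn from that table rests on its titles. NEBNext and Ribo-Zero Plus are the nuclease methods. Nothing in the labels says whether replicates came from separate cultures, so the p-values measure the spread between these libraries, which may be technical.

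Library totals lay between 46858 and 5795774 counts, with 120019 to 421521 in HEK293T and 1031889 to 5795774 in the 8 K562 kit libraries made without nuclease. The 13 erythroid markers used to check the lines summed to 13716 to 14328 CPM (the count scaled to a common library total) in those 8 K562 libraries. They summed to 0 to 13.03 CPM in the 6 HEK293T libraries made without nuclease, where 9 of the 13 were at 0, and to 8.88 to 9.92 CPM in HEK293FT, where 6 were at 0. The 6 HEK293 markers summed to 743 to 874 CPM in those HEK293T libraries, 371 to 385 CPM in HEK293FT and 9.88 to 20.3 CPM in K562. The sums thus set K562 apart from the HEK293 lines, as labelled. PAX2 and SOX11 had 1 count each over the undepleted HEK293T libraries, and 0 and 1 in undepleted HEK293FT. NEFL, NEFM, CDH2 and ZIC2 therefore carried the HEK293 sum. The markers were not used to tell HEK293T from HEK293FT. The line, the experiment and the range of fragment sizes change together between tables and cannot be told apart in any difference between K562 and the HEK293 lines.

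5-aminolevulinate synthase makes the first committed intermediate and is the step at which the pathway is mainly regulated. ALAS1 is the form found in most tissues and is repressed by haem, whereas ALAS2 is the form of developing red cells, under the control of the erythroid factor GATA1 and, through an iron-responsive element in the 5′ untranslated region of its mRNA, of iron. ALAD joins the products into porphobilinogen, UROS closes the tetrapyrrole ring, UROD removes carboxyl groups from its side chains, CPOX and PPOX oxidise the ring to protoporphyrin, and FECH, ferrochelatase, inserts the iron.

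On GRCh38, with the GENCODE release 29 annotation, the counted transcripts were ALAS1 at chr3:52198094-52214327 (plus strand), ALAS2 at chrX:55009055-55031064 (minus), ALAD at chr9:113386317-113401333 (minus) and UROS at chr10:125788578-125823256 (minus). UROD lay at chr1:45012147-45015575 (plus), CPOX at chr3:98579446-98593723 (minus), PPOX at chr1:161166415-161171216 (plus) and FECH at chr18:57548283-57586772 (minus). Their coding sequences ran from 795 nt in UROS to 1920 nt in ALAS1, with a median of 1316 nt against 1389 nt over all genes tested between the lines. GC content of the coding sequences was 48.1 to 59.4% (median 55.9%, against 51.3% over all genes tested). A total of 6 coding sequences shared no window of 28 nt with another annotated gene. CPOX shared 137 of its 1338 windows (10.2%) with AC021660.3 and FECH shared 8 of 1245 (0.643%) with the pseudogene FECHP1, so their counts depend on how the authors treated reads with several matches.

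The iron-responsive element is shown because it is the feature that sets the ALAS2 mRNA apart from that of ALAS1. A search for its loop hexamer, CAGTGN, on the sense strand of the 5′ untranslated regions of the 8 transcripts found it in ALAS2 alone, from base 108 of 138. Of the 5 positions on either side of it, 4 could form Watson-Crick pairs. The hexamer occurs in 15.6% of 2865 untranslated regions of 108 to 168 nt. In the DNA alphabet, with the loop in capitals, it reads:
ALAS2 loop: gttcgtcctCAGTGCagggcaaca

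Sequences upstream of the transcription start are shown for the ALAS pair, for UROD, which differed most firmly between the lines, and for CPOX. The CPOX window holds 2 matches to the GATA motif, although CPOX was not called between the lines. The motif was sought because GATA1 was abundant in K562 footprints (400.4 CPM on average over 8 libraries) and had 0 counts in all HEK293 libraries. The sequences come from RefSeq (GRCh38.p14), which held an entry for 7 of the 8 genes, and are trimmed to the part outside exons. Capitals mark GATAA, the core of the GATA motif, or TTATC, its reverse complement, searched on both strands of the 250 bases before the start.
ALAS2, chrX:55031065-55031227, minus strand: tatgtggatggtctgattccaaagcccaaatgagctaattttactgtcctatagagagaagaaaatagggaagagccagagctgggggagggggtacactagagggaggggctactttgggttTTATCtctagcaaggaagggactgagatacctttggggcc
ALAS1, chr3:52197833-52198082, plus strand: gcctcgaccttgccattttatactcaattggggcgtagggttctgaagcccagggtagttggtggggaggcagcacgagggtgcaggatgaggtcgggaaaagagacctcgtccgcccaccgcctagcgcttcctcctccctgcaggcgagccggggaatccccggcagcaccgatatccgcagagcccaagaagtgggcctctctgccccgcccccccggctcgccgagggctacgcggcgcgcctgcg
UROD, chr1:45012004-45012146, plus strand: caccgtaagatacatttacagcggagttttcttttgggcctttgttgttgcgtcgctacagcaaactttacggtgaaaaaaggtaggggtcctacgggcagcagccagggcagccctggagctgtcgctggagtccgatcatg
CPOX, chr3:98593724-98593861, minus strand: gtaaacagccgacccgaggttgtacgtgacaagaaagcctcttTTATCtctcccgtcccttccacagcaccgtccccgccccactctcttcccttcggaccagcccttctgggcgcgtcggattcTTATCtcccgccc

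ALAS2 had a second match 30 bases before the RefSeq start, which lies within the GENCODE exon and is given here with its flanks.
ALAS2 proximal match: cagaggagaaggGATAAatgccaggtccta
The motif thus occurred 2 times before ALAS2 and 2 times before CPOX, and 1 time before the downstream of 2 listed starts of PPOX. It was not found in the windows of ALAS1, ALAD, UROD or FECH. Of 35116 RefSeq windows of the same length, 20.4% hold it. A match of this kind is a description of the letters and not of a bound site.

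ALAS1 carried fewer footprints in the K562 kit table than in either HEK293 line, while ALAS2 was detected in K562 and had 0 counts in every HEK293 library. ALAS1 had 24.7 and 37.8 CPM in the undepleted K562 libraries, 58.3 and 91.2 CPM in the undepleted HEK293T libraries and 65.5 CPM in the undepleted HEK293FT library. Both K562 values lay below all 3 HEK293 values. In the K562 size table the 20 to 34 nt library titled undepleted had 63.1 CPM, from 12 counts, above the lower HEK293T value. That of 20 to 60 nt had 21.3 CPM, from 1 count. Over the kit-table libraries made without nuclease the lowest, median and highest values were 24.7, 35.9 and 42.8 CPM in 8 K562 libraries. In 6 HEK293T libraries they were 58.3, 81.5 and 96.0 CPM, again without overlap.

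ALAS1 changed by -1.05 on the log2 scale between undepleted HEK293T and K562, where a negative value means lower in K562 (SE 0.39, edgeR quasi-likelihood adjusted p 0.0238, n = 2 and 2), and against HEK293FT it was -0.97 ± 0.27 (edgeR adjusted p 0.00088, n = 2 and 1). HEK293FT had a single undepleted library, so in every test against it the spread came from the K562 and HEK293T pairs and that library was assumed to vary like them. The call against HEK293T was lost without HEK293T replicate 2 (-0.65, edgeR adjusted p 0.481) and without K562 replicate 1 (-0.77, adjusted p 0.145). DESeq2 called neither (adjusted p 0.0940 and 0.116). In a fit of the 16 libraries made without nuclease, a choice made after seeing the data, the change was -0.86 against HEK293T (edgeR adjusted p 1.45e-07). That fit counted libraries of different methods as replicates of a line, so its p-values may be too small, here and below. It called 7222 of 10434 genes between K562 and HEK293T, 8492 between K562 and HEK293FT and 2369 between the HEK293 lines.

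ALAS2 was too low to enter the test of the undepleted libraries between lines. It entered the 16-library fit and was called there against both HEK293 lines, where its change rests on 0 HEK293 counts. That fit called 7222 of 10434 genes against HEK293T and 8492 against HEK293FT. In the undepleted K562 libraries it had 12 and 10 counts, or 10.6 and 9.69 CPM, and in the 8 K562 libraries without nuclease it had 9.02, 10.5 and 12.02 CPM as the lowest, median and highest values (mean 10.3 ± 1.01 CPM, SD). The 8 HEK293T libraries held 0 of 1827473 counts and both HEK293FT libraries 0 of 6648535, where 3 counts over the line would be 1.64 and 0.451 CPM. Set against that floor, the K562 mean was at least 6.29-fold higher than in HEK293T and at least 22.9-fold higher than in HEK293FT. These bounds leave out the counting error of K562. The exact 95% interval of the ratio of counts, from the libraries without nuclease, had lower limits of 4.10 and 18.3. Bulk counts cannot tell more cells with ALAS2 footprints from more footprints per cell.

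Within the 8 K562 kit libraries made without nuclease, ALAS1 carried more footprints than ALAS2. The 8 libraries held 856 counts on ALAS1 and 249 on ALAS2, so that 77.5% fell on ALAS1 (exact binomial 95% interval 74.9 to 79.9%), and the share of single libraries lay between 70.0 and 80.3% with a median of 77.9%. Per kb of coding sequence the density of ALAS2 was 0.267 to 0.467 of that of ALAS1, with a median of 0.309. The undepleted pair gave both the highest ratio, 0.467 in replicate 1, and a value near the lowest, 0.280 in replicate 2, from 12 and 10 ALAS2 counts. Summed, ALAS1 and ALAS2 had 35.2 to 53.2 CPM in these K562 libraries, below the 58.3 to 96.0 CPM of the 6 HEK293T libraries and the 65.5 and 75.0 CPM of HEK293FT.

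**Figure D1:**
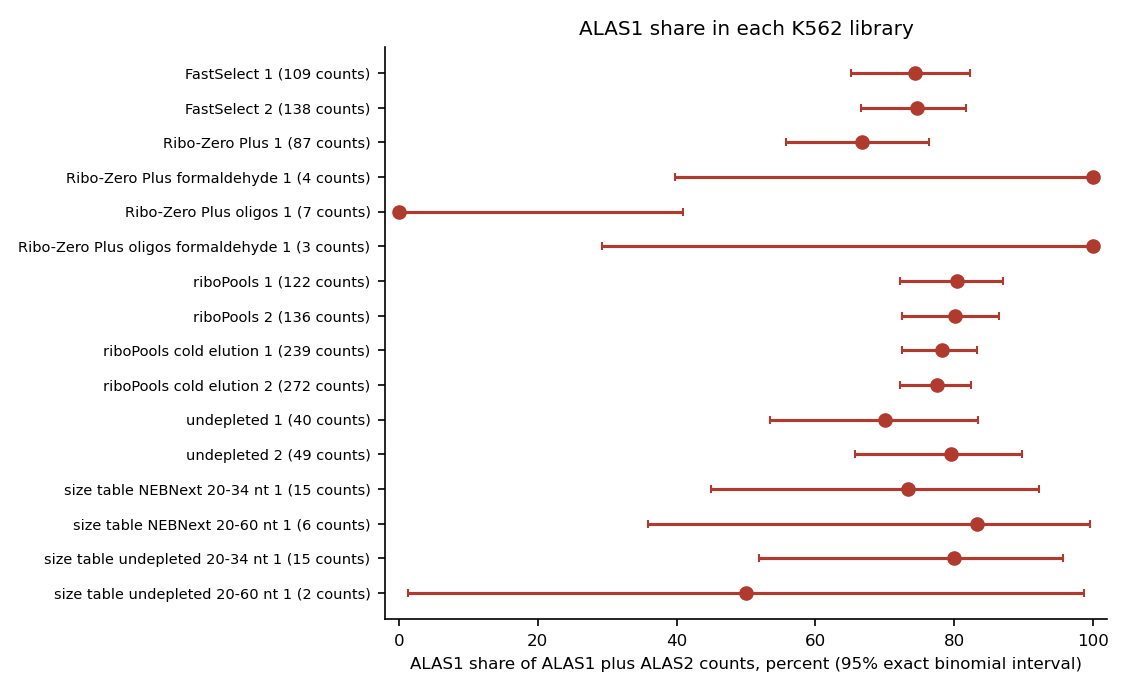
Share of ALAS1 among the counts of ALAS1 and ALAS2 in each of the 16 K562 libraries (x axis, percent), with the exact binomial 95% interval as a bar and the counts of both genes beside each library. The 8 kit-table libraries without nuclease sit between 70.0 and 80.3%. The 3 Ribo-Zero Plus libraries with additions have 3 to 7 counts. That with oligos, with 0 counts on ALAS1 and 7 on ALAS2, has an interval of 0 to 41.0%, below those values. The intervals with formaldehyde (39.8 to 100%) and with both (29.2 to 100%) are too wide to place.

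ALAD, the cytosolic enzyme that forms porphobilinogen, had 7.05 and 12.6 CPM in undepleted K562, 66.7 and 13.03 CPM in undepleted HEK293T and 17.8 CPM in undepleted HEK293FT. HEK293T replicate 1, with 8 counts, stood far above every other library made without nuclease, the next of which was RiboCop replicate 2 with 31.0 CPM. Against HEK293T ALAD changed by -1.64 ± 0.65 on the log2 scale (edgeR adjusted p 0.0346), but it was -0.18 without HEK293T replicate 1 (adjusted p 0.930) and -1.27 without K562 replicate 1 (adjusted p 0.179). DESeq2 did not call ALAD (adjusted p 0.124), and against HEK293FT the change was -0.75 ± 0.53 (edgeR adjusted p 0.228). Over the 16 libraries it was -0.92 against HEK293T (edgeR adjusted p 0.00833) and -0.98 against HEK293FT (adjusted p 6.16e-07). The ranges of the 8 K562 libraries (6.54 to 13.1 CPM) and the 6 HEK293T libraries (8.54 to 66.7 CPM) overlapped, while both HEK293FT values (17.8 and 18.4 CPM) lay above all 8 K562 values.

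UROS, whose loss causes congenital erythropoietic porphyria, was close in level in the undepleted libraries of the lines. It had 17.6 and 20.4 CPM in K562, 24.996 and 13.03 CPM in HEK293T, from 3 and 2 counts, and 23.3 CPM in HEK293FT. The log2 fold change was 0.30 ± 0.69 against HEK293T (edgeR adjusted p 0.776) and -0.19 ± 0.41 against HEK293FT (adjusted p 0.732), so a difference was not detectable at this depth. With the 16 libraries UROS was 1.001 higher in K562 than in HEK293T on the log2 scale (edgeR adjusted p 0.00272), although the ranges of 17.6 to 23.2 CPM and 7.12 to 24.996 CPM overlapped.

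UROD, uroporphyrinogen decarboxylase, had the highest level of the 8 genes in every line and the firmest difference between lines. The undepleted K562 libraries had 528 and 490 CPM, the HEK293T libraries 117 and 124 CPM, and the HEK293FT library 119 CPM. Over the libraries without nuclease, the 8 in K562 had 490, 545 and 563 CPM as the lowest, median and highest values and the 6 in HEK293T had 109, 117 and 147 CPM. Every K562 library was thus far above every HEK293 library.

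The log2 fold change of UROD was 2.33 ± 0.20 against HEK293T (edgeR adjusted p 2.95e-29) and 2.21 ± 0.12 against HEK293FT (adjusted p 5.75e-68, n = 2 and 1). It was called under all of the alternatives tried, DESeq2 included, with values of 2.23 to 2.41 against HEK293T. Counts pooled over the 8 and 6 libraries gave a ratio of 4.37 (exact 95% interval 3.78 to 5.08, counting error only). UROD held 69.0% of the footprints on the 8 genes in K562 (exact interval 68.3 to 69.6%), against 33.0% in HEK293T (29.2 to 37.1%) and 36.7% in HEK293FT (34.8 to 38.6%). These intervals, from pooled counts, also allow for counting error only. The shares of single libraries were 64.8 to 70.8% in K562, 29.7 to 38.75% in HEK293T and 32.9 to 37.2% in HEK293FT.

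CPOX, coproporphyrinogen oxidase of the mitochondrial intermembrane space, had 81.9 and 82.4 CPM in undepleted K562, 66.7 and 65.2 CPM in HEK293T and 79.9 CPM in HEK293FT. The undepleted K562 values lay above those of HEK293T, by 0.57 ± 0.34 on the log2 scale, which did not pass the test (edgeR adjusted p 0.193). Against HEK293FT the change was 0.15 ± 0.21 (adjusted p 0.564). Over all libraries without nuclease the K562 range, 67.2 to 82.4 CPM, lay within that of HEK293T, 65.2 to 96.8 CPM, and the fitted change was 0.04.

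PPOX, protoporphyrinogen oxidase, had 34.3 and 24.2 CPM in undepleted K562 against 0 and 6.52 CPM in HEK293T, that is 64 counts against 1. Its fitted log2 fold change of 3.19 ± 0.97 (edgeR adjusted p 0.00431) rests on that single HEK293T count, and the ratio of the counts was 8.08 with an exact 95% interval of 1.40 to 324. The call was lost without HEK293T replicate 1 (2.39, edgeR adjusted p 0.0802) and under DESeq2 (adjusted p 0.0980). Over the libraries without nuclease PPOX had 23.1, 28.5 and 34.3 CPM in K562 and 0, 6.70 and 19.9 CPM in HEK293T, without overlap, and the fitted change was 1.59 (edgeR adjusted p 3.78e-07). HEK293FT, at 22.2 CPM undepleted, lay closer to K562, and the change against it, 0.52 ± 0.38, did not pass the test (adjusted p 0.247). With the 16 libraries it did, at 0.61 (edgeR adjusted p 1.76e-05).

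FECH, the ferrochelatase, had 74.9 and 79.5 CPM in undepleted K562, 50.0 and 52.1 CPM in HEK293T and 33.3 CPM in HEK293FT. All K562 values were above all HEK293 values. The log2 fold change was 1.32 ± 0.26 against HEK293FT (edgeR adjusted p 2.96e-06, n = 2 and 1, the single library having 30 counts) and 0.84 ± 0.37 against HEK293T, which did not pass the test (adjusted p 0.0661). Over the libraries without nuclease, 66.8 to 79.5 CPM in K562 did not overlap 24.1 to 62.6 CPM in HEK293T. In the 16-library fit, where 7222 of 10434 genes were called, FECH was called too (0.90, edgeR adjusted p 8.50e-08).

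**Figure D2:**
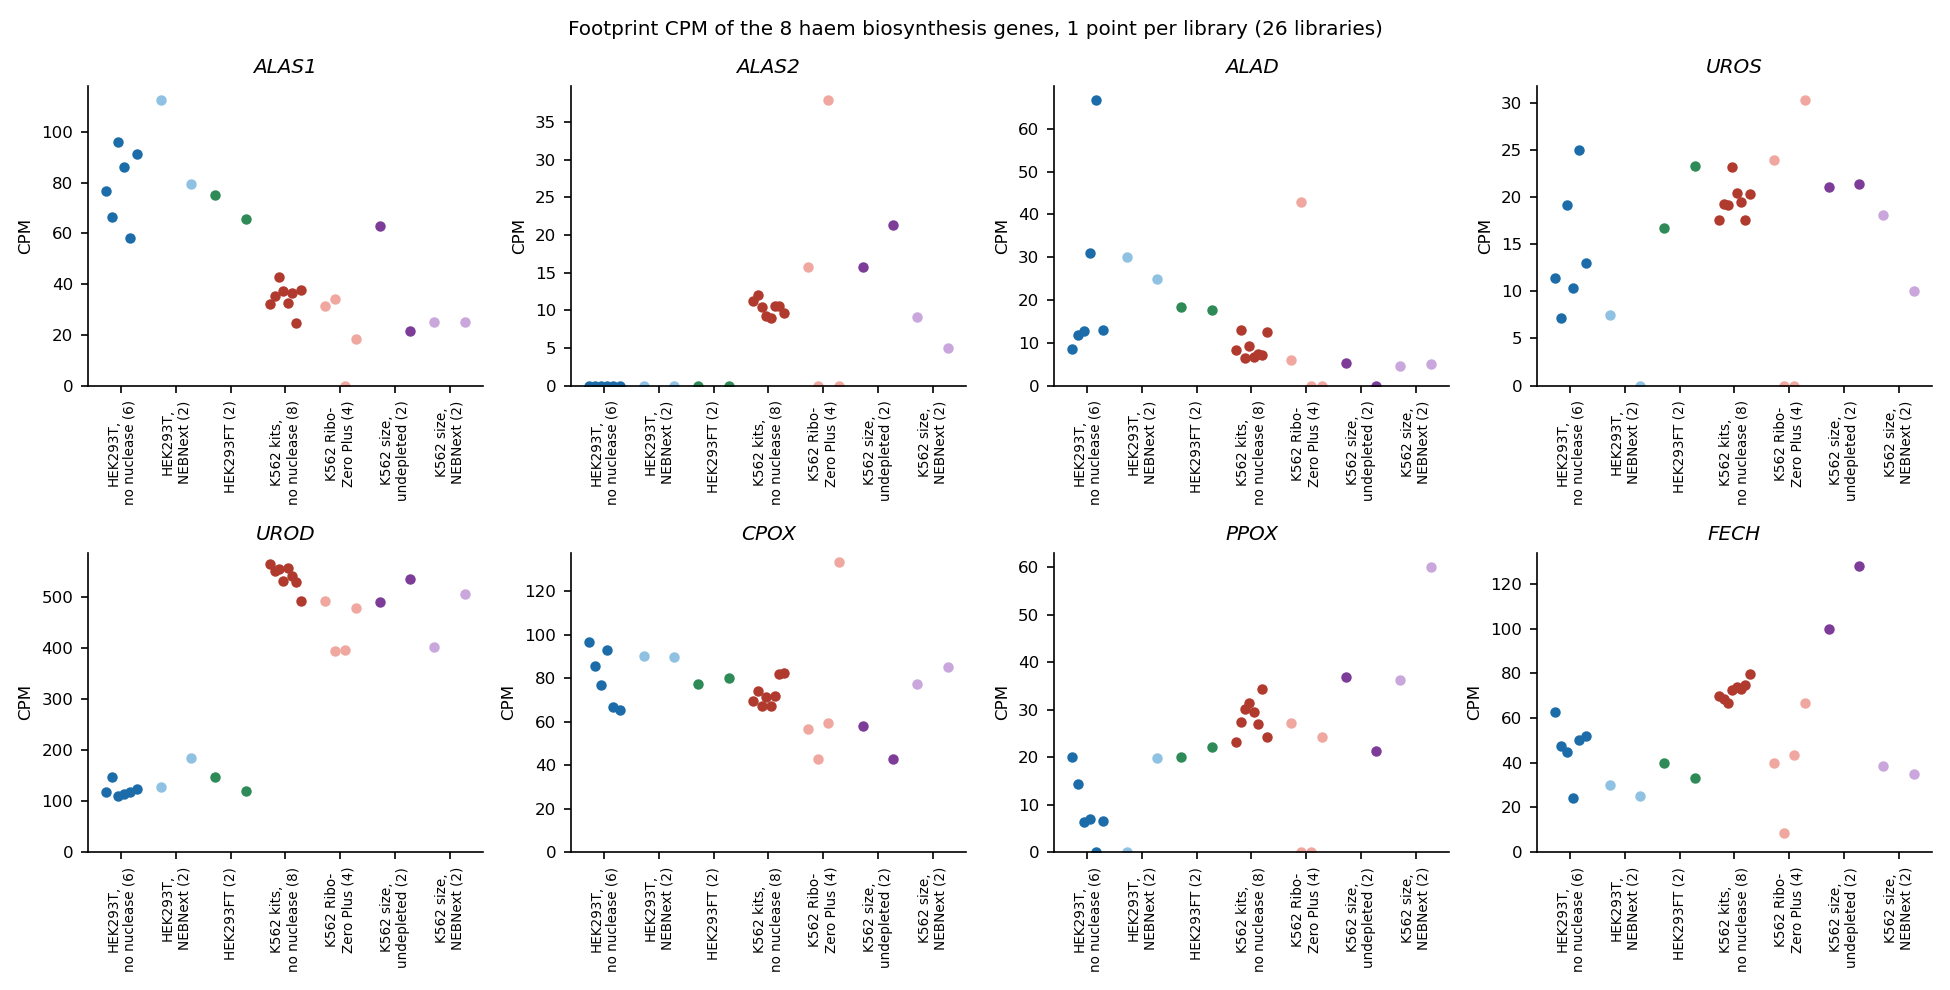
CPM of each of the 8 genes (y axis, linear from 0, own scale per panel) in each of the 26 libraries, grouped by cell line, table and use of nuclease, with 1 point per library. UROD is at or above 394 CPM in all 16 K562 libraries and at most 184 CPM in the 10 HEK293 libraries, ALAS2 is at 0 in all 10 HEK293 libraries, and the FECH values with nuclease sit below those of the undepleted libraries of the same table.

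Of the 7 genes tested between undepleted K562 and HEK293T, 2 (UROD and PPOX) rose and 2 (ALAS1 and ALAD) fell in K562, while 35.4% of all 9644 genes tested were called, 18.5% as higher and 16.9% as lower. DESeq2 called 1 of the 7, UROD. Against HEK293FT 3 of the 7 were called, UROD and FECH as higher and ALAS1 as lower, where 52.1% of all genes were called. The median log2 fold change of the 7 was 0.57 against HEK293T and 0.15 against HEK293FT, beside medians of 0.02 and -0.01 over all genes. Shares of this size in the background mean that a call between these lines is common, and the counts over the genes are not read as a result. Both comparisons share the K562 libraries. HEK293FT and HEK293T differed at 4.05% of genes and at 0 of the 7 (edgeR), with 1, PPOX, at an unadjusted p under 0.05 and 0 called by DESeq2, which gave no adjusted p for 5. PPOX and UROD were called as higher in HEK293FT with the 16 libraries (0.98 and 0.34 on the log2 scale).

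**Figure D3:**
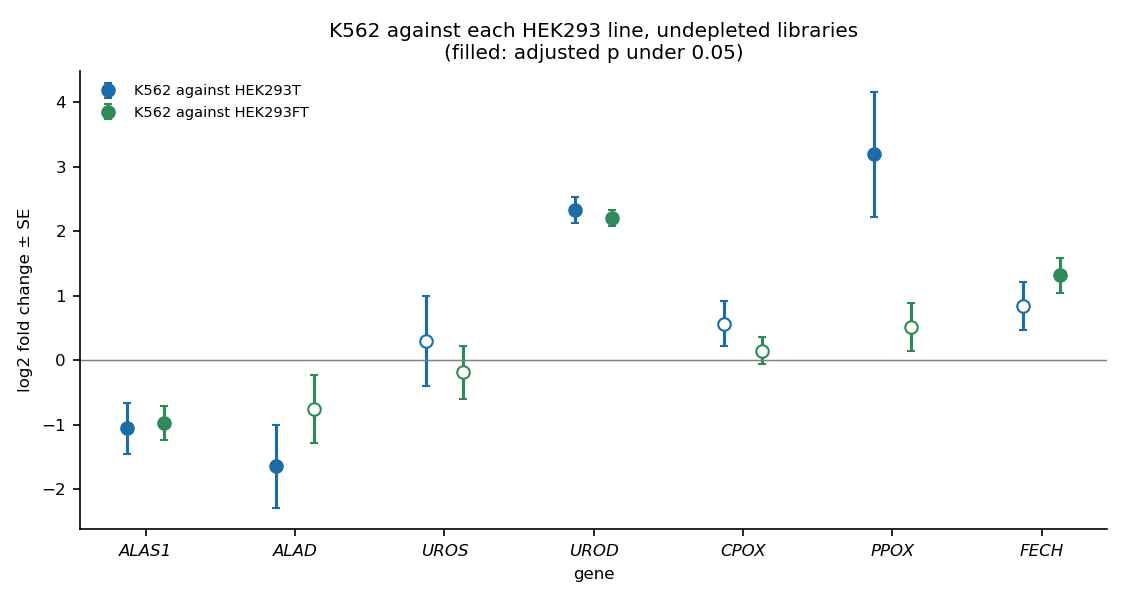
Fitted log2 fold change (y axis) of the 7 tested genes in undepleted K562 against undepleted HEK293T and HEK293FT, with the standard error as a bar and filled symbols for an edgeR adjusted p under 0.05. UROD stands at 2.33 and 2.21 and ALAS1 at -1.05 and -0.97, while the PPOX value against HEK293T has the widest error, 0.97.

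By the ranges of CPM over the 8 K562 and 6 HEK293T libraries without nuclease, 4 of the 8 genes (ALAS2, UROD, PPOX and FECH) were higher in K562 with no overlap and 1 (ALAS1) was lower. Of the 9644 genes tested between the lines, 17.0% and 25.0% did so in the same directions. ALAS2 was not among those 9644, and the counts over the genes are not read as a result. ALAD, UROS and CPOX overlapped. Summed over the 8 genes the K562 libraries had 757 to 801 CPM (median 790) and the HEK293T libraries 365 to 393 CPM (median 372), and HEK293FT had 361 and 394 CPM. UROD alone had medians of 545 and 117 CPM in the same libraries.

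Levels of different genes were compared per kb of coding sequence, as the median density over the libraries without nuclease. In K562 UROD led with 495 CPM per kb, and its range stood apart from the next, FECH with 57.3 and CPOX with 52.4, which overlapped each other. Apart from these followed UROS (24.4), PPOX (19.9), ALAS1 (18.7), ALAD (7.98) and ALAS2 (5.96), each overlapping the next. In HEK293T UROD was again first and separate, at 106 CPM per kb, and behind it CPOX (59.6), ALAS1 (42.4), FECH (38.4), UROS (15.4), ALAD (13.0), PPOX (4.68) and ALAS2 (0) formed a series in which each range overlapped the next. HEK293FT had the order UROD (121), CPOX (57.8), ALAS1 (36.6), FECH (28.8), UROS (25.2), ALAD (18.3), PPOX (14.7) and ALAS2 (0), with an overlap of FECH and UROS alone, from 2 libraries. ALAS1 stood in the third place in both HEK293 lines and in the sixth in K562.

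**Figure D4:**
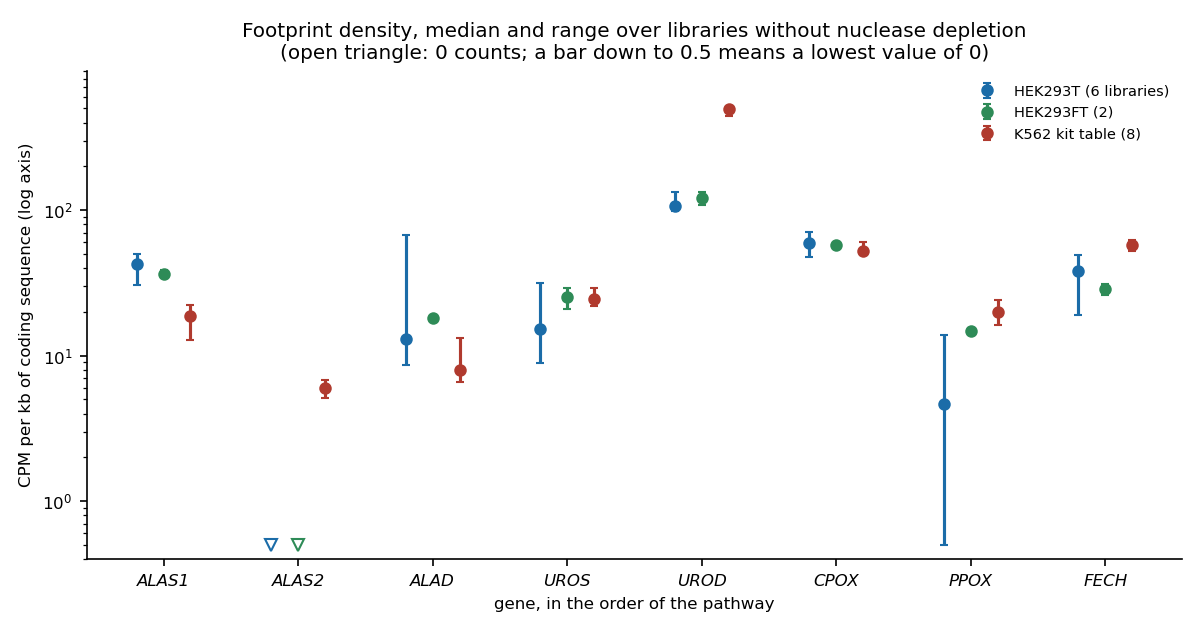
Footprint density in CPM per kb of coding sequence (y axis, log scale) of the 8 genes in the order of the pathway, with the median as a point and the range over libraries as a bar, for 6 HEK293T, 2 HEK293FT and 8 K562 libraries made without nuclease. UROD at 495 in K562 is the highest point, and open triangles mark the 0 counts of ALAS2 in the HEK293 lines.

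Across the depletion methods that use no nuclease, UROD and FECH varied least among the 8 K562 libraries and ALAD most. There the SD of log2 CPM was 0.06 for UROD and 0.08 for FECH, 0.12 for CPOX and UROS, 0.14 for ALAS2, 0.19 for PPOX, 0.23 for ALAS1 and 0.39 for ALAD. Counting alone gives 0.04, 0.12, 0.12, 0.22, 0.31, 0.18, 0.17 and 0.34 for these genes in the same order, so UROD, ALAS1, PPOX, ALAD and CPOX lay at or above that level and the other 3 below it. Genes with a mean count within a factor of 2 of that of UROD had a median SD of 0.05, and those around ALAS1 had 0.16.

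In the test of each method against undepleted K562, 0 of the 8 genes were called with FastSelect, riboPools or cold-eluted riboPools by edgeR, where 0.0198%, 0.0794% and 0.258% of 10078 genes were called. There was 1 with an unadjusted p under 0.05 for FastSelect (UROD), 0 with riboPools and 2 with cold elution (CPOX and UROD). DESeq2 called 0 in each, with no adjusted p for 7 in the last. Log2 fold changes lay between -0.22 and 0.19 with FastSelect, between -0.27 and 0.35 with riboPools and between -0.45 and 0.15 with cold elution. The fold changes of UROD were 0.12 ± 0.05, 0.08 ± 0.05 and 0.10 ± 0.05 (SE), and those of ALAS2 0.19 ± 0.36, -0.06 ± 0.37 and -0.06 ± 0.34. All methods share the 2 undepleted libraries.

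In HEK293T the filter left 3 of the 8 genes, ALAS1, UROD and CPOX. With Ribo-Zero Gold and RiboCop 0 of them were called by edgeR or DESeq2 and 0 had an unadjusted p under 0.05, where 0.068% and 0.0% of 4410 genes were called. With RiboCop 195 of the 4410 had an unadjusted p under 0.05, and DESeq2 also called 0. The 3 genes had log2 fold changes between -0.11 and 0.46. In HEK293FT the custom oligo library and the undepleted library differed by less than 1.5-fold for each of the 7 detected genes, and 1.3% of the 5225 genes averaging 100 counts or more passed that fold. ALAD, UROS and PPOX had fewer counts than that minimum, so this share is no background for them. The ratio of oligo to undepleted was 1.23 for UROD (exact 95% interval 1.01 to 1.52), 1.19 for FECH (0.812 to 1.81), 1.14 for ALAS1 (0.871 to 1.53), 0.969 for CPOX (0.754 to 1.26) and 0.716 for UROS (0.443 to 1.21). There were no replicates and no test.

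FECH fell with Ribo-Zero Plus. The library without additions had 39.7 CPM, from 73 counts, against 74.9 and 79.5 CPM undepleted and 66.8 to 79.5 CPM over all 8 libraries of that table without nuclease. It was thus the lowest of the 9 by a wide gap. The log2 fold change was -0.94 ± 0.20 (edgeR adjusted p 0.000216, n = 1 and 2), and FECH was called in all alternatives, with adjusted p-values of 0.000227 to 0.0478 among those with another scaling, tool or set of libraries. The lone library was assumed to vary like the other groups.

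CPOX had 56.5 CPM in the same library against 81.9 and 82.4 CPM undepleted and at least 67.2 CPM in the other 6. Its log2 fold change was -0.52 ± 0.18 (edgeR adjusted p 0.02497), which was not called by DESeq2 (adjusted p 0.149), with all 12 libraries in the fit (0.158), or without undepleted replicate 1 (0.0877) or replicate 2 (0.0811). FECH and CPOX were the 2 of the 8 genes that fell, and 0 rose, where 20.6% of all genes were called, 11.7% as lower and 8.95% as higher. The other 6 had log2 fold changes from -0.68 ± 0.54 for ALAD to 0.65 ± 0.41 for ALAS2, and that of UROD was -0.04 ± 0.07. The ALAS1 share of the pair was 66.7% (exact interval 55.7 to 76.4%) there, within the interval of undepleted replicate 1 (53.5 to 83.4%).

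**Figure D5:**
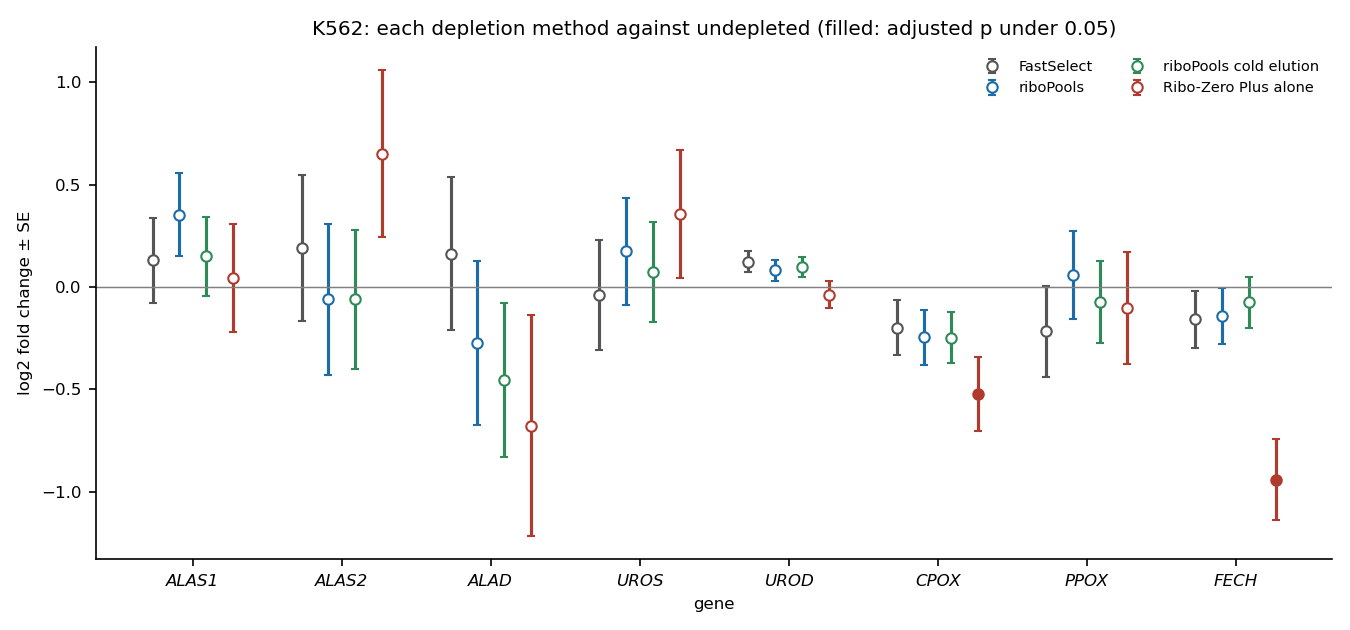
Fitted log2 fold change against undepleted K562 (y axis) of each of the 8 genes with FastSelect, riboPools, cold-eluted riboPools and Ribo-Zero Plus without additions, with the standard error as a bar and filled symbols for an edgeR adjusted p under 0.05. FECH at -0.94 and CPOX at -0.52, both with Ribo-Zero Plus, are the filled points.

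FECH was also lower with NEBNext, in tests that it did not pass. In the K562 size table it had 38.5 and 35.1 CPM with NEBNext and 99.9 and 128 CPM in the libraries titled undepleted, at 20 to 34 nt and 20 to 60 nt. The log2 fold change was -1.46 ± 0.50 (edgeR adjusted p 0.0861), with 1 of the 3 genes tested at an unadjusted p under 0.05 and 2.72% of 3715 genes called. DESeq2 gave no adjusted p for it. In HEK293T the NEBNext libraries had 30.003 and 24.9 CPM, from 4 and 5 counts, against 50.0 and 52.1 CPM undepleted and 24.1 to 62.6 CPM over the 6 libraries without nuclease. These ranges overlap through RiboCop replicate 2 at 24.1 CPM. FECH did not pass the filter there, and without the filter its change was -0.89 ± 0.61 (edgeR adjusted p 0.910).

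In all, each of the 8 nuclease libraries had less FECH than every undepleted library of its own table. FECH was the only one of the 8 genes for which this held. It could not hold for ALAS2, ALAD or PPOX, each of which had 0 counts in an undepleted library. Of 4454 genes with at least 100 counts over the 6 undepleted libraries, 0.741% did so, a count made after the FECH values were seen. The comparisons share undepleted libraries within a table, and the Ribo-Zero Plus library with both additions (66.6 CPM) lay only just below the lowest library without nuclease. A fit of NEBNext in both lines called 0.296% of 4736 genes as different in their response, and 0 of the 4 tested here, with -0.53 ± 0.80 for FECH in K562 less HEK293T (edgeR adjusted p 0.941) and 0 of them at an unadjusted p under 0.05. With NEBNext in HEK293T 0 of the 3 genes tested, ALAS1, UROD and CPOX, were called or had an unadjusted p under 0.05, with 3.24% of the genes called, and DESeq2 gave no adjusted p for them.

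The 3 Ribo-Zero Plus libraries with additions were shallow, at 116742 to 184722 counts, and most of the 8 genes were near the floor of 3 counts in them. UROD had 394 CPM with formaldehyde, 395 CPM with oligos and 478 CPM with both. The library without additions had 491 CPM, and all 3 values lay below the 490 to 563 CPM of the libraries without nuclease. ALAS1 had 0 counts with oligos, 4 with formaldehyde and 3 with both, and ALAS2 had 7 with oligos and 0 in the other 2. CPOX had 11, 5 and 22 counts and FECH 8, 1 and 11 in the libraries with oligos, formaldehyde and both. The summed erythroid markers of these libraries lay between 4311 and 11195 CPM, below the 13716 CPM of the lowest library without nuclease, and the part of this in the values of the 8 genes was not tested.

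Of 28 other genes of haem metabolism, 27 were tested between undepleted K562 and HEK293T. In K562, 8 rose, 2 fell and 17 were not called, where 35.4% of all genes were called, 18.5% as higher and 16.9% as lower. The total is near the background, with more rises and fewer falls than those shares, and the counts are not read as a result. The median log2 fold change was 0.11 beside 0.02 over all genes. By role, 4 of the 10 tested transport genes rose and 1 fell, 1 of the 2 genes that control ALAS rose, 1 of 4 for substrate supply and 1 of 3 for haem use rose, 1 of 4 for haem breakdown rose and 1 fell, and 0 of 4 for iron-sulfur supply were called. By the fitted fold change the largest rises were those of GATA1, SLC6A9 and BLVRB, of which the first and second rest on 0 counts in HEK293T, so the place of SLC6A9 is uncertain. GATA1, the factor that drives erythroid genes, had 886 counts in undepleted K562 and 0 in every HEK293 library, which makes its mean over the 8 K562 libraries at least 244-fold higher than in HEK293T and at least 887-fold higher than in HEK293FT, against 3 counts over each line. The exact 95% intervals of the ratio of counts had lower limits of 160.2 and 713 over the libraries without nuclease.

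CPM values with ± in this paragraph are the mean and SD of the 2 undepleted libraries of a line. SLC6A9, a glycine transporter, had 19.3 ± 1.30 CPM in K562 and 0 counts in both undepleted HEK293T libraries (edgeR adjusted p 0.00681). That call was lost without HEK293T replicate 2 (adjusted p 0.0986), SLC6A9 did not pass the filter without K562 replicate 1, and over the libraries without nuclease its ratio was 3.92 (exact interval 1.89 to 9.81), against 12.2 (9.15 to 16.6) for BLVRB and 3.56 (1.86 to 7.83) for the transporter SLC25A37, named after its value was seen. BLVRB, a biliverdin reductase, had 396 ± 1.96 CPM against 39.5 ± 8.69 CPM (3.55 on the log2 scale, with an edgeR adjusted p of 9.23e-34). The 2 falls were those of PGRMC1, a haem-binding membrane protein, and HMOX1, haem oxygenase. PGRMC1 had 92.3 ± 1.02 CPM in K562 and 317 ± 117 CPM in HEK293T (-1.48 on the log2 scale, with an edgeR adjusted p of 3.20e-11). HMOX1 had 0 counts in undepleted K562, against 52.5 ± 27.1 CPM in HEK293T (adjusted p 7.73e-13), and 3 counts in the 8 K562 libraries against 95 in the 6 HEK293T ones. Against HEK293FT 8 of the 27 rose and 6 fell, where 52.1% of all genes were called. With Ribo-Zero Plus alone 2 of 27 rose and 0 fell, where 8.95% of all genes were called as higher and 11.7% as lower. The total against HEK293FT is near the background, and neither set of counts is read as a result.

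Over the 16 libraries without nuclease the genes whose log2(CPM + 1) ran most like a member were sought in a set of 8637 that averaged 10 CPM or more. These points share the split between lines, depth and table, so the coefficients are descriptions. UROD was most like MYB (Pearson's r 0.998), EPHB6 and GAGE2E (both 0.996), which had 147, 88.9 and 145 CPM in K562 and at most 0.522 CPM in either HEK293 line. GAGE2E belongs to a family of near-identical copies, so its count is uncertain. ALAS1 was most like RALGPS2 (0.981), MAP4K5 (0.969) and FOXO3 (0.967), all lower in K562. For FECH the closest were LONRF3 (0.964), PTCD3 (0.960) and CD46 (0.939), for PPOX DGAT1 (0.978), for ALAD TFG (0.927), for UROS TFDP1 (0.919) and for CPOX ANAPC1 (0.827). ALAS2 had a mean under 10 CPM over these libraries and was not compared.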

How the data were processed

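Ribosome profiling libraries of 3 cell lines were given in 4 tables, in which the authors deposited 1 whole read count for each transcript, per the file headers. The RPM values the authors deposited equal count over library total, so the counts alone were tested, and CPM here is that value. The submitters' processing notes name CASAVA 1.8, STAR and GRCh38. Read filters and the treatment of duplicate and multiply matching reads are not given in the sources used here, and intervals and floors allow for counting error alone. The floor is 3 counts.

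Samples were grouped by title. The quasi-likelihood test of edgeR 4.0.16, run in R 4.3.3, was applied to the counts with TMM scaling, filterByExpr (minimum count 10) and Benjamini-Hochberg adjustment over all genes of a comparison, at an adjusted p under 0.05. The SE of a fold change was derived from that test, as the absolute log2 fold change over the square root of the F statistic. The lines were compared in 1 fit of the 5 undepleted libraries, the HEK293T methods in 1 fit of 8, the K562 methods in 1 fit of 9, without the Ribo-Zero Plus libraries with additions, and the size table with depletion and size as additive terms. DESeq2 1.42.0, other scalings, no filter, left-out replicates, the replicate number as a block and other sets of libraries were alternatives. The fits were also run on simulated data, with far fewer genes changed than were called between K562 and HEK293T, and no result here rests on that run. Densities divide CPM by the coding length in GENCODE release 29, which held 99.8% of the transcripts (97.3% in the same version, and 6 of the 8 genes here). Density ratios of ALAS2 to ALAS1 on the log2 scale used a pseudocount of 0.5 counts. The RiboCop replicates did not differ beyond sampling noise (chi-square p 0.103) but were kept as 2, since the labels give them different barcodes. All 8 genes are named. Of the other haem genes those with the 3 largest rises and 3 largest falls among the called were to be named, and there were 2 falls. For each gene with a mean of at least 10 CPM the 3 most alike in Pearson's r were found, and the first or all are named. The genes, lists and tests were chosen with earlier results of these data known.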

Additional observations from a re-analysis of the deposited data

How the results depend on the processing

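The counts of genes called, over all genes tested, moved by more than 1.5 times in several settings. With the 16 libraries made without nuclease, chosen after seeing the data, 7222 genes were called between K562 and HEK293T (3410 with the undepleted libraries), 8492 between K562 and HEK293FT (5029) and 2369 between HEK293FT and HEK293T (391). DESeq2 called 3000 genes for K562 against HEK293FT, 237 for HEK293FT against HEK293T, 58 for HEK293T NEBNext (143 with edgeR), 1 for Ribo-Zero Gold (3), 17 for NEBNext in the K562 size table (101), 1 for FastSelect (2), 2 for riboPools (8), 13 for cold elution (26), and, with Ribo-Zero Plus, 447 (2080). No filter left 1 call for Ribo-Zero Gold, and no size term left 44 in the size table. All 12 libraries in the K562 fit gave 0 calls with FastSelect, 0 with riboPools, 0 with cold elution and 231 with Ribo-Zero Plus. Leaving out each replicate in turn gave 2117 to 2835 calls for K562 against HEK293T, 3959 to 4024 against HEK293FT, 219 to 263 for HEK293FT against HEK293T, 56 to 150 for HEK293T NEBNext, 1 for Ribo-Zero Gold, 0 to 1 for RiboCop, 1 to 3 for FastSelect, 2 to 8 for riboPools, 13 to 22 for cold elution and 1271 to 1412 for Ribo-Zero Plus. Apart from the settings with fewer or more libraries, the cause was not tested.

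The labels give no shared source for a replicate number. Replicate differences correlated at 0.065 to 0.137 between HEK293T groups, over 0.1 in 4 of 6 pairs of groups, a hint of shared sets there, and at -0.035 to 0.048 between K562 groups, so the numbers were not taken to pair samples. With the replicate number as a block, 2818 genes were called between K562 and HEK293T in a fit of their 4 libraries, against 2853 from the same 4 without the block, 153 with NEBNext, 3 with Ribo-Zero Gold and 0 with RiboCop in HEK293T, and 2 with FastSelect, 9 with riboPools and 27 with cold elution in K562.

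The changes whose sign turned were not called with the undepleted libraries or in the setting that turned them. HEK293FT less HEK293T was 0.063 with 16 libraries for ALAD (-1.72 to 0.61 with a replicate left out), and 0.068 with 16 libraries and 0.11 with the custom oligo library for ALAS1 (-0.31 to 0.35). For UROS, K562 less HEK293FT was 0.30 with 16 libraries and 0.17 with the custom oligo library, and K562 less HEK293T was -0.14 to 0.78 with a replicate left out. The median SD of log2 CPM of the 8 genes over the 12 K562 kit libraries was 0.99, against 0.70 with a pseudocount of 1 count and 0.20 over the libraries with at least 300000 counts. Of the settings tried for single genes, 260 were counted as unchanged, 13 lost a call, 8 gained one, 8 turned an uncalled sign and 12 moved an SD. The 260 include settings in which DESeq2 gave no adjusted p, so that a call could not be judged, and SDs that did not move. Depth limits ALAD, UROS, PPOX and FECH in HEK293T, where the undepleted libraries had at most 8 counts on each.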
